A study of Mus musculus with 3 samples.

Results

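The 9 heat shock genes described here are Hspa1a, Hspa1b, Hsp90aa1, Hsp90ab1, Hspa8, Hspa5, Dnajb1, Hspb1 and Hsph1, found by gene symbol among the 28001 features of a single-cell RNA sequencing dataset of the mouse nucleus accumbens. The 3 samples form 1 group: Thy1::ChR2 mice, in which a Thy1 promoter drives the light-gated channel channelrhodopsin-2, with FLiCRE labelling during optical stimulation of ChR2 in the nucleus accumbens, taken as 400 µm coronal dissections. FLiCRE is a reporter that records coincident calcium and light in a cell. All 3 samples carried the transgene, the labelling reagents and the stimulation, and the whole tissue was dissociated to single cells, so the data hold no unstimulated, unlabelled or undissociated control. The labels give no age and do not say how many animals went into a library.

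Heat shock proteins are chaperones that bind unfolded or partly folded proteins. In the cytosol, the Hsp70 proteins take up client proteins delivered by J-domain partners and release them with the help of nucleotide exchange factors, and the Hsp90 proteins act on later folding steps of kinases, receptors and other clients. Under heat, oxidative stress or handling, heat shock factor 1 binds heat shock elements in the promoters of the inducible genes, and enzymatic dissociation of tissue is a well-known trigger of Hspa1a, Hspa1b and immediate early genes. The endoplasmic reticulum has its own Hsp70, encoded by Hspa5, which is controlled mainly by the unfolded protein response.

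Promoter windows from 250 bases before to 50 bases after the annotated start were available from RefSeq (build GRCm38.p6) for 6 of the 9 genes. They are shown for the 5 genes with a match, because Hspa1a and Hspa1b are near copies of each other there and because the stress-linked motifs differ between the cytosolic genes and Hspa5. Capitals mark matches on either strand to 2 adjoining heat shock units (GAANNTTC or TTCNNGAA), to 3 adjoining units (GAANNTTCNNGAA, which contains both pairs) or to the endoplasmic reticulum stress element (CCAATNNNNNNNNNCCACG). Each is written 5′ to 3′ on the strand of the gene.
Hspa1a, chr17:34972107-34972406, minus strand: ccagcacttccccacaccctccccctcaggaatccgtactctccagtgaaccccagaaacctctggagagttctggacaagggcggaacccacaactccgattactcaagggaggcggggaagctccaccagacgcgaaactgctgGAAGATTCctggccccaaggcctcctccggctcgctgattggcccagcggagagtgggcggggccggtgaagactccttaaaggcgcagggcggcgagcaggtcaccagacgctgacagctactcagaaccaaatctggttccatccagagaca
Hspa1b, chr17:34959189-34959488, minus strand: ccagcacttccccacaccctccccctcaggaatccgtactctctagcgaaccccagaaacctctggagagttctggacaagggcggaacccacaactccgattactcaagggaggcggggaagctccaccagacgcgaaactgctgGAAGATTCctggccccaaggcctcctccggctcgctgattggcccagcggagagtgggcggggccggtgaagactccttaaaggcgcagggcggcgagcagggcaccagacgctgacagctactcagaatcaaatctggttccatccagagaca
Hspb1, chr5:135887669-135887968, plus strand: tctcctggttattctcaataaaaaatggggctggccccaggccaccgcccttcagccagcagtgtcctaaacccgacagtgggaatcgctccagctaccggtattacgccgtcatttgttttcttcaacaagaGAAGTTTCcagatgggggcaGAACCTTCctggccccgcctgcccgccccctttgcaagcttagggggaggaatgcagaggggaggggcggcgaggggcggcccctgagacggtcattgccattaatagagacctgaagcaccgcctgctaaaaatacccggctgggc
Hsph1, chr5:149636266-149636565, minus strand: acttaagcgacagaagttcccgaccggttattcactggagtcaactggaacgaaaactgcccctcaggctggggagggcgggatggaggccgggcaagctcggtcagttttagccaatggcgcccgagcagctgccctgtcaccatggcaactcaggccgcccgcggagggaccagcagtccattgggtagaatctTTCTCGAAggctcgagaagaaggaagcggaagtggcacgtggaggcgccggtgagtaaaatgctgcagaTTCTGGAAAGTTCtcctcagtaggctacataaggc
Hspa5, chr2:34771840-34772139, plus strand: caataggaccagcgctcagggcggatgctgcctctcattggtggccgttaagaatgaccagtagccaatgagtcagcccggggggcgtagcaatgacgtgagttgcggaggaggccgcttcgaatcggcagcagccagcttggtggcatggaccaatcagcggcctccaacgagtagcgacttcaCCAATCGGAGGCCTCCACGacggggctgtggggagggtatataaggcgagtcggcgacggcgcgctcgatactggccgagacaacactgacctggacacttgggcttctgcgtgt

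The Hspa1a and Hspa1b windows were identical at 296 of 300 bases (98.67%), and the genes lie 9952 bp apart on chromosome 17. Both held GAANNTTC at position -104, counted with the start base as 1 and with no base 0. Hspb1 held the same pair at -117 and -97. Hsph1 has 2 annotated starts with overlapping windows, and the one shown held 3 adjoining units at position 16, just after the start, and TTCNNGAA at -54. Hspa5 held the endoplasmic reticulum stress element at -65. Among the 32851 mouse promoter windows of the same length, GAANNTTC occurred in 7.86%, TTCNNGAA in 8.52%, either pair in 15.06%, 3 units in 0.603% and the endoplasmic reticulum stress element in 0.119%. The pairs are therefore common letters, and a match describes the sequence without showing that a factor binds there. None of these letters occurred in either of the 2 Dnajb1 windows on chromosome 8, which says only that they are not in those windows.

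The dissociated cells were captured in 3 libraries, told apart by the barcode suffix (1 to 3), which is a name here and was not matched to a labelled replicate. After filtering, 9923 cells remained of 11625 barcodes, with 2306, 5783 and 1834 cells and 2788685, 14563414 and 6267259 UMIs (unique transcript molecules) in libraries 1 to 3. Library 1 was the shallowest, with a median of 985.5 UMIs per cell against 2084 and 2674, and had a median mitochondrial share of 3.53% against 7.83% and 6.97%. Marker genes gated 8829 cells to 12 classes, 5099 of them neurons, and left 1094 ungated. D1-gated and D2-gated neurons carry markers of the direct-pathway and indirect-pathway spiny neurons, and other neurons are all remaining neuron-gated cells. Of 34 markers that the gate did not use, 33 were higher in their own class in all 3 libraries, the exception being 1 of the 2 for D1-gated neurons. Fibroblasts had fewer than 10 cells in library 3 and were left out of the tests, which leaves 11 classes. The libraries shared 13, 7 and 22 barcode sequences by pair. Levels are CPM, the usual scaling of a gene's UMIs to all UMIs of a class in a library, counted at transcript 3′ ends and not divided by length. Means are given ± SD over the 3 libraries. Nothing in the labels says that the libraries come from separate animals, so the spread and p-values cover differences between these libraries.

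**Figure D1:**
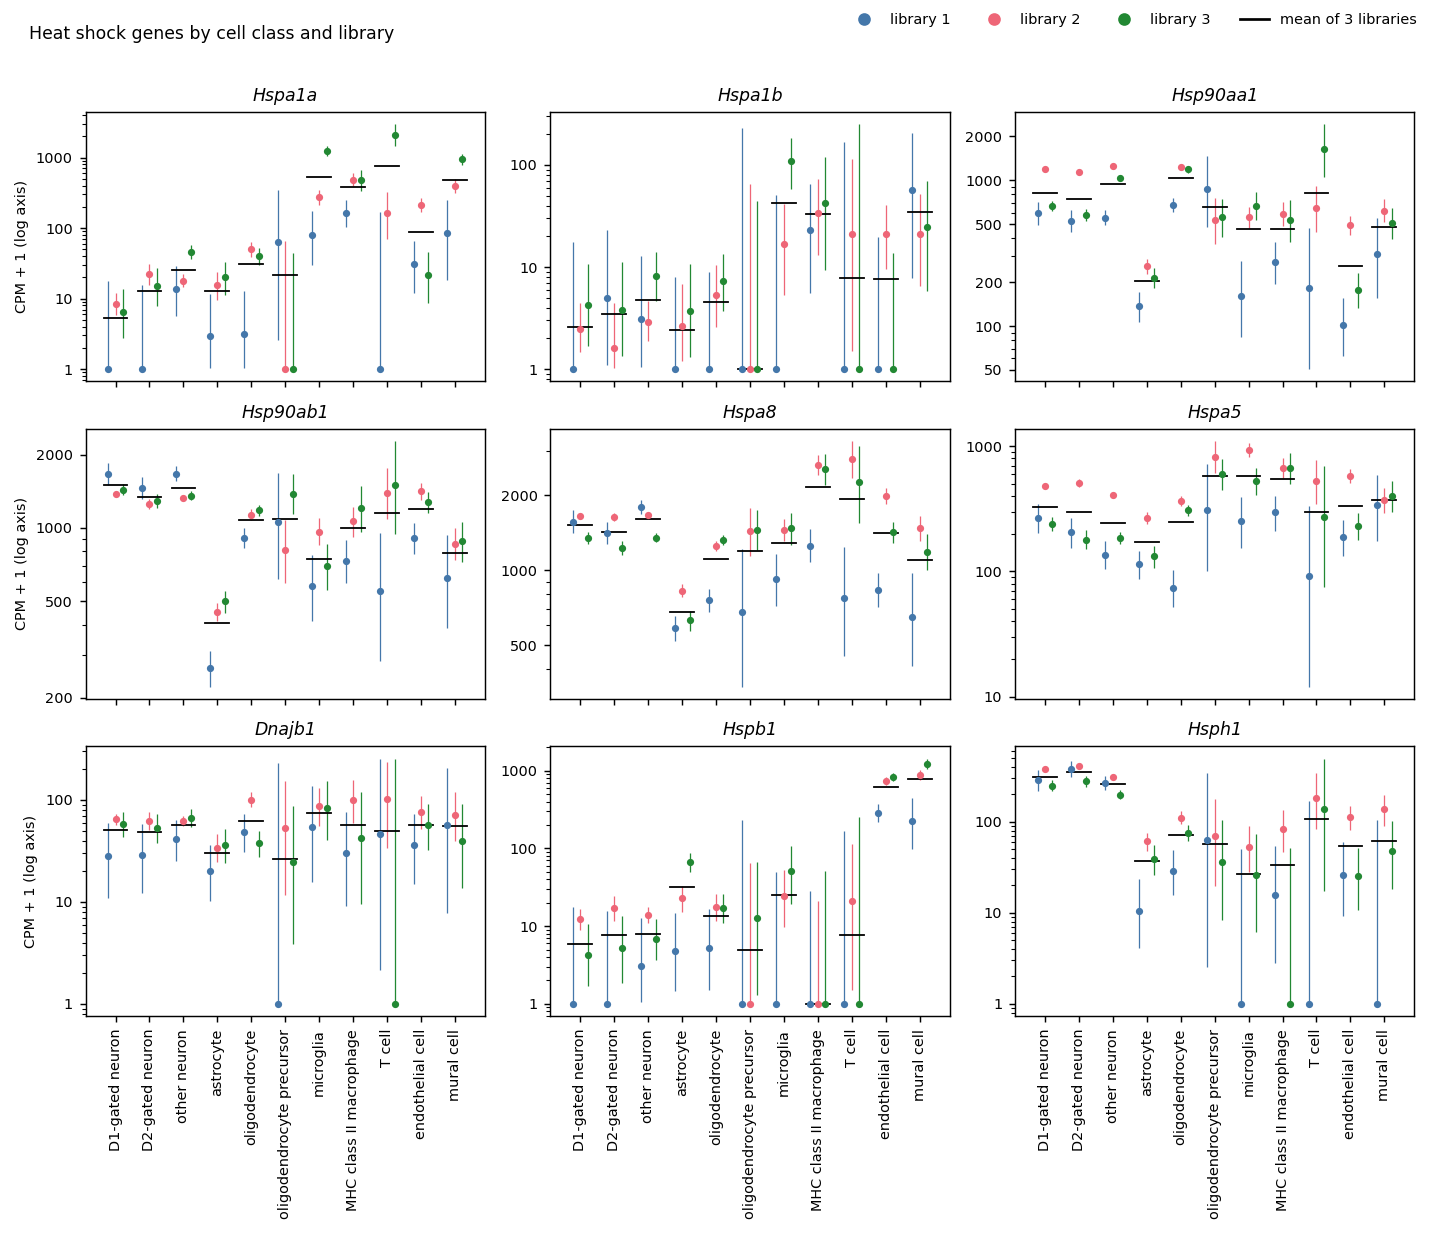
Level of each heat shock gene in 11 gated cell classes. Points are single libraries with exact 95% Poisson intervals that cover counting error only, black bars are means of the 3 libraries, and the vertical axes are logarithmic and show CPM + 1. Hspa1a spans from a mean of 4.31 CPM in D1-gated neurons to 758 CPM in T cells, where 1 cell sets the value of library 3, with 374.7 to 536 in macrophages, mural cells and microglia, while Dnajb1 stays between means of 25.1 and 74.2 CPM.

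Hspa1a, which encodes an inducible cytosolic Hsp70, was sparse in neurons and concentrated in immune and mural cells. In microglia, the resident brain macrophages, it measured 80.0, 272 and 1254 CPM in libraries 1, 2 and 3. In macrophages that carry MHC class II genes it measured 162, 484 and 477 CPM. In mural cells, the pericytes and smooth muscle cells of vessels, the values were 84.3, 397 and 951 CPM. Each of these classes was lowest in library 1, and microglia and mural cells were highest in library 3. D1-gated neurons had 0, 7.45 and 5.48 CPM, where the 0 in library 1 allows up to 13.6 CPM, and D2-gated neurons had 0, 21.2 and 14.1 CPM, where the 0 allows up to 11.99 CPM. Every value in the 3 immune and mural classes lay above every value in D1-gated and D2-gated neurons. Endothelial cells stood between, at 30.1, 213 and 20.7 CPM. Each class in turn was then set against the mean of the other classes on the log2 scale. By edgeR's quasi-likelihood test with Benjamini-Hochberg adjustment over all features, Hspa1a was higher in microglia by 3.62 ± 0.47 (SE, adjusted p = 7.52e-07), in macrophages by 3.57 ± 0.51 (adjusted p = 3.72e-06) and in mural cells by 3.38 ± 0.48 (adjusted p = 4.25e-06). Without library 3 the microglial difference was 2.69, and without library 2 it was 4.29. Oligodendrocyte precursors had 1 Hspa1a UMI in all, from library 1. Without that library a class at 0 enters the mean of the others, so fitted sizes are not given for it. By the same test, Hspa1a was lower in D1-gated neurons, by -3.85 ± 1.34 (adjusted p = 0.0189), and in D2-gated neurons, by -2.40 ± 0.94 (adjusted p = 0.0385). Neither was called without library 1, but that fit cannot judge these 2 calls, because oligodendrocyte precursors at 0 then enter the mean. The D2-gated difference was -3.07 without library 2, and its call held in 11 of 16 alternatives. It was also lost with DESeq2 size factors (adjusted p = 0.0617), without the library term (0.0761), with a gate of at least 4 markers (0.0669) and without doublet removal (0.0602).

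A handful of cells held much of the Hspa1a signal. Hspa1a had 1439 UMIs in 534 cells (5.38% of cells), and 371 of those cells had a single UMI. The 20 cells with the most Hspa1a held 508 UMIs (35.3% of all), and the highest had 48. For comparison, the 20 highest cells held 2.63% of the UMIs of Hsp90aa1, 1.94% of those of Hsp90ab1 and 2.195% of those of Hspa8. Of the 59 cells with at least 5 Hspa1a UMIs, 12 were microglia, 10 macrophages, 10 mural cells, 20 ungated and 7 in other classes. They were found 2 times in library 1, 30 times in library 2 and 27 times in library 3, and 14 of the top 20 came from library 3. Without those 20 cells, an alternative added after seeing the data, the mean fell to 207 ± 151 CPM in microglia and 202.5 ± 115 CPM in mural cells and stayed at 374.7 ± 184 CPM in macrophages, none of whose cells was among the 20. The calls in microglia, mural cells and macrophages held, at 3.22, 2.96 and 4.29, as did those in D1-gated and D2-gated neurons, at -3.26 and -1.74. These sizes are not on the same footing as the main ones. T cells fell to 9 cells in library 3 and left the fit, so the mean of the other classes changed. T cells had the highest mean of all, 758 ± 1176 CPM, but their values were 0, 161 and 2112 CPM, and library 3 owed its value to 1 of its 10 T cells, with 31 UMIs. The T cell call (2.95 ± 0.73, adjusted p = 0.00754) was lost without library 3 (1.12, adjusted p = 0.406), and the difference was 4.04 without library 2. The call was also lost without library 1 (adjusted p = 0.121), where oligodendrocyte precursors at 0 enter the mean. Without the 20 cells the T cell mean was 53.8 CPM.

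**Figure D2:**
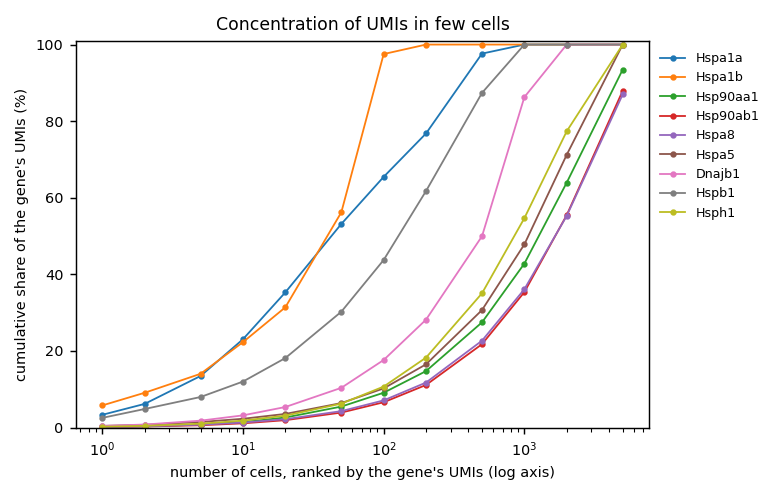
Cumulative share of each gene's UMIs (vertical axis, %) held by the cells with most of it (horizontal axis, number of cells, logarithmic) among all 9923 cells. The 20 highest cells hold 35.3% of Hspa1a and 18.1% of Hspb1 UMIs, against 1.94% for Hsp90ab1. The curves of Hspa1b and Dnajb1 also reflect that most of their positive cells have a single UMI.

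The share of cells with an Hspa1a UMI was higher in macrophages than in D1-gated neurons in each library also when depth was made equal. Among cells thinned to 1000 UMIs, macrophages were positive at 10%, 18.8% and 23.5% in libraries 1 to 3 (50, 69 and 17 cells deep enough), and D1-gated neurons at 0%, 1.01% and 0.840% (108, 1089 and 238 cells). The unthinned shares were 11%, 28.7% and 25.9% in macrophages and 0%, 2.12% and 2.01% in D1-gated neurons. Thinned microglia were positive at 0%, 11.5% and 21.1% (31, 87 and 38 cells), with unthinned shares of 6.67%, 10.1% and 22.2%. The order of classes by this share was not that by CPM: macrophages had the highest mean thinned share, 17.5%, and T cells, first by CPM, had 12.2%, from 10, 24 and 5 cells. A share of about 1% in the neurons is a level at which free RNA in the droplets cannot be told apart from expression. Hspa1b, the neighbouring inducible copy, had 121 UMIs in all and followed the same classes. It measured 0, 15.8 and 107 CPM in microglia, 22.1, 32.7 and 40.9 CPM in macrophages, and 56.2, 20.1 and 23.4 CPM in mural cells. Macrophages were above T cells, the next class in order (0, 20.2 and 0 CPM), in each library and without overlap. Hspa1b was higher, in edgeR's quasi-likelihood test with Benjamini-Hochberg adjustment, in microglia (adjusted p = 4.15e-05), macrophages (adjusted p = 0.000374) and mural cells (adjusted p = 0.0293). The mural call rests on 9 UMIs and was lost without library 1 (adjusted p = 0.123) and without library 2 (adjusted p = 0.0870). Fitted sizes are not given for Hspa1b between classes, because oligodendrocyte precursors had no Hspa1b UMI and the sizes then depend on the constant added to the counts. In the last 500 bases of the transcripts, no stretch of 50 bases was shared between Hspa1a and Hspa1b or with any other annotated gene, so 3′ counts can separate the pair.

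Hsph1, which encodes a nucleotide exchange factor of Hsp70, showed the reverse order: it was highest in neurons. It measured 285, 382 and 248.8 CPM in D1-gated neurons. In D2-gated neurons it measured 380, 406 and 277 CPM. In other neurons it measured 268, 308 and 198 CPM. All 9 neuronal values lay above all values of the other 8 classes, the nearest being T cells at 0, 182 and 136 CPM. Microglia were the lowest class, at 0, 51.3 and 24.8 CPM. Against the mean of the other classes, by edgeR's quasi-likelihood test with Benjamini-Hochberg adjustment, Hsph1 was higher by 2.07 ± 0.22 in D2-gated neurons (adjusted p = 6.47e-12), by 1.79 ± 0.23 in D1-gated neurons (adjusted p = 6.35e-10) and by 1.59 ± 0.23 in other neurons (adjusted p = 1.36e-08). The D2-gated difference was 2.65 without library 2. Hsph1 was lower in astrocytes (-1.03 ± 0.30, adjusted p = 0.00431) and microglia (-1.45 ± 0.45, adjusted p = 0.0124). These 2 calls were lost without library 2, with adjusted p-values of 0.135 and 0.205, and without the library term, with 0.125 and 0.154, and the microglial one also without library 3 (adjusted p = 0.0525).

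Dnajb1, a J-domain partner that hands clients to Hsp70, had the narrowest spread of class means of the 9. The means ran from 25.1 ± 25.8 CPM in oligodendrocyte precursors to 74.2 ± 18.2 CPM in microglia, a 2.96-fold range, beside 3.16-fold for Hspa8 and 176-fold for Hspa1a. Microglia measured 53.3, 86.8 and 82.5 CPM, and astrocytes 19.1, 33.1 and 35.1 CPM. Every microglial value was above every astrocyte value. The single call between classes was in oligodendrocytes (47.2, 99.9 and 36.6 CPM; 0.67 ± 0.23, adjusted p = 0.0147 by edgeR's quasi-likelihood test), where library 2 alone was high. It was lost in 7 of 16 alternatives, among them without library 1 (0.57, adjusted p = 0.0858), without library 2 (0.47, adjusted p = 0.400), and with DESeq2 size factors (0.36, adjusted p = 0.254).

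Hspa8, the constitutive cytosolic Hsp70, was detected in 82.1% of cells and was high in every class. It measured 1254, 2645 and 2537 CPM in macrophages, the class with the highest mean. Astrocytes, the support cells that take up transmitter, had the lowest mean, with 583, 827 and 627 CPM. The macrophage values lay above all astrocyte values, and both classes were lowest in library 1. Hspa8 was higher in macrophages by 1.07 ± 0.19 (adjusted p = 3.46e-06 by edgeR's quasi-likelihood test with Benjamini-Hochberg adjustment) and lower in astrocytes (-0.67 ± 0.21, adjusted p = 0.00830). The astrocyte call was lost without library 3 (-0.54, adjusted p = 0.178) and without the library term (-0.70, adjusted p = 0.0940). In the last 500 bases of the Hspa8 transcript, 90.24% of 50-base stretches also occurred in transcripts of 13 other annotated genes, so its level depends on how the counting treated reads that match several genes. The same share was 16.0% for Hspb1 and 7.76% for Hsp90ab1, and 0% for the other 6 genes.

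The 2 Hsp90 genes had their highest means in different classes. Hsp90aa1, the stress-inducible form, measured 672, 1224 and 1186 CPM in oligodendrocytes, the myelin-forming cells. Other neurons had 554, 1248 and 1034 CPM, so their range overlapped with that of oligodendrocytes. Astrocytes were lowest, at 136, 255 and 212 CPM, and endothelial cells measured 100, 489 and 176 CPM. By edgeR's quasi-likelihood test with Benjamini-Hochberg adjustment, Hsp90aa1 was higher in oligodendrocytes by 1.48 ± 0.18 (adjusted p = 1.16e-10) and in other neurons by 0.64 ± 0.19 (adjusted p = 0.00370), and lower in astrocytes (-1.16 ± 0.23, adjusted p = 2.67e-05) and endothelial cells (-1.11 ± 0.24, adjusted p = 0.000121). The endothelial difference was -1.73 without library 2, and the call in other neurons was lost without library 3 (adjusted p = 0.0590) and without the library term (adjusted p = 0.110).

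Hsp90ab1, the constitutive form, measured 1668, 1382 and 1436 CPM in D1-gated neurons, the class with the highest mean. Astrocytes had 264, 450 and 497 CPM, below every value of the next class, microglia (573, 963 and 693 CPM). This was the one gap in its order of classes, which spanned 3.70-fold. Hsp90ab1 was lower in astrocytes by -1.09 ± 0.21 (adjusted p = 9.12e-06 by edgeR's quasi-likelihood test). Calls of higher Hsp90ab1 in oligodendrocytes (0.54 ± 0.18, adjusted p = 0.00983) and endothelial cells (0.46 ± 0.18, adjusted p = 0.0454) were lost with DESeq2 size factors, at 0.18 (adjusted p = 0.478) and 0.14 (adjusted p = 0.624). The oligodendrocyte call was also lost without library 2 (adjusted p = 0.0871) or 3 (adjusted p = 0.132). The endothelial call was lost when any library was left out, at adjusted p-values of 0.0545, 0.371 and 0.195 without libraries 1, 2 and 3.

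Hspa5 encodes BiP, the Hsp70 of the endoplasmic reticulum. It measured 253, 940 and 528 CPM in microglia and 295, 669 and 668 CPM in macrophages. In astrocytes it measured 113, 265 and 131 CPM, the lowest class mean. Oligodendrocyte precursors had the highest mean, 579 ± 259 CPM, from 92 cells in all. Library 1 was low in nearly every class, so that microglia in library 1 lay within the range of astrocytes in library 2. By edgeR's quasi-likelihood test with Benjamini-Hochberg adjustment, Hspa5 was higher in microglia by 1.07 ± 0.22 (adjusted p = 5.22e-05) and macrophages by 1.14 ± 0.22 (adjusted p = 2.81e-05), and lower in other neurons (-0.80 ± 0.22, adjusted p = 0.00154) and astrocytes (-0.70 ± 0.23, adjusted p = 0.0105). In cells thinned to 1000 UMIs the macrophage difference was 0.55 (adjusted p = 0.157) and that of other neurons -0.46 (adjusted p = 0.0792). The astrocyte call was lost without library 3 (adjusted p = 0.188), and both lower calls were lost without the library term (adjusted p = 0.162 in other neurons and 0.212 in astrocytes).

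Hspb1, a small heat shock protein that holds unfolded proteins and stabilises actin, marked the vessel wall. It measured 225, 873 and 1224 CPM in mural cells. Endothelial cells, which line the vessels, had 286, 735 and 833 CPM. Astrocytes, the next class, had 3.82, 21.8 and 66.2 CPM. The lowest vascular value was above the highest value of the other 9 classes, and library 1 was the lowest of the 3 in both vascular classes. Macrophages had 0 Hspb1 UMIs in each library, which allows up to 22.1, 16.3 and 40.9 CPM in libraries 1 to 3. In cells thinned to 1000 UMIs, 24.3%, 46.0% and 54.1% of endothelial cells had an Hspb1 UMI (70, 139 and 74 cells), against 0%, 1.10% and 0.420% of D1-gated neurons. Unthinned, the shares were 27.2%, 61.3% and 84.6% in endothelial cells and 0%, 3.27% and 1.20% in D1-gated neurons. By edgeR's quasi-likelihood test with Benjamini-Hochberg adjustment, Hspb1 was higher in endothelial cells (adjusted p = 5.03e-30) and mural cells (adjusted p = 1.41e-28) and lower in macrophages (adjusted p = 0.0106). The macrophage call was lost without library 1 (adjusted p = 0.0547). Without library 2 the T cells, and without library 3 the oligodendrocyte precursors, also had no Hspb1 UMI. Those 2 fits cannot judge the macrophage call. A call of higher Hspb1 in astrocytes (adjusted p = 0.0288) held in 8 of 16 alternatives and was lost, among others, without library 1 (adjusted p = 0.0589) or 3 (adjusted p = 0.563) and with DESeq2 (adjusted p = 0.190). Fitted sizes are not given, since the macrophages at 0 enter the mean of the other classes.

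Over the 9 genes and 11 classes, 32 of 99 pairs (32.3%) were called, 21 higher and 11 lower, against 30.8% of all pairs of features and classes tested, and 16 of the 32 calls held in every alternative that was run. Astrocytes had most calls, 6 of 9 genes against 37.9% of 8993 features, and 5 of the 6 were lower, against 8.55% of features called lower. MHC class II macrophages had 5 of 9 against 22.1%, with 4 higher against 17.2%, and microglia had 4 of 9 against 21.9%, with 3 higher against 17.1%. Mural cells had 3 of 9 against 17.3%, endothelial cells 3 of 9 against 30.9%, and oligodendrocytes 3 of 9 against 37.8%. Other neurons had 3 of 9 against 50.1%, D1-gated neurons 2 of 9 against 49.1%, D2-gated neurons 2 of 9 against 48.3%, and T cells 1 of 9 against 12.5%. In the 3 neuronal classes Hspb1 and Hspa1b count as not called, but the fit could not judge them. A class with no UMI of the gene enters the mean of the others, and the SE of Hspb1 was 243 or more. The 99 pairs hold further pairs of this kind, such as Hspa1b in astrocytes (SE 1148). In the astrocytes the median log2 difference of the 9 genes was -1.03, beside 0.23 over all features, and in microglia 0.83 beside -0.06. Oligodendrocyte precursors had 0 of 9 calls against 10.8% by edgeR, with 4 of 9 at an unadjusted p under 0.05. The shares of all features called in a class move with the scaling: with DESeq2 size factors in place of TMM, the median of all features shifted by -0.33 in oligodendrocytes, -0.30 in macrophages, -0.29 in endothelial cells, 0.27 in D1-gated neurons, 0.29 in D2-gated neurons, 0.25 in other neurons, 0.18 in T cells and 0.13 in oligodendrocyte precursors. Higher calls then made up 53.2% of all calls in oligodendrocytes in place of 72.6%, 58.6% in macrophages in place of 77.8%, 61.1% in endothelial cells in place of 77.0%, 58.5% in T cells in place of 45.3%, 80.0% in D1-gated neurons in place of 69.9% and 79.6% in D2-gated neurons in place of 68.8%.

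Set as a whole against non-neuronal cells, neurons had less Hspa1a, Hspa1b and Hspb1 and more Hsph1. Hspa1a measured 6.35, 14.3 and 26.4 CPM in neurons and 27.5, 110 and 149 CPM in non-neuronal cells. Within each library the neuronal value was the lower. Both groups rose from library 1 to library 3, but in library 3 a single cell among the other neurons held 48 UMIs. That cell is among the 20 of highest Hspa1a. Without those 20, other neurons had 16.9 CPM in library 2 and 13.2 CPM in library 3. D1-gated and D2-gated neurons were also higher in library 2 than in library 3. Hspb1 measured 1.06, 12.9 and 4.78 CPM in neurons against 48.3, 140.0 and 173 CPM, with no overlap. Hsph1 measured 302, 350 and 231 CPM in neurons against 18.1, 89.9 and 52.9 CPM, with no overlap in the other direction. By edgeR's quasi-likelihood test with library as a block and Benjamini-Hochberg adjustment over 12468 features, 4 of the 9 genes were called (44.4%), against 66.3% of all features, and all 9 passed the filter on low counts. The 3 lower genes stand against 34.8% of features called lower, and the 1 higher gene against 31.6%. The log2 differences were -3.01 ± 0.20 for Hspa1a (adjusted p = 4.16e-05), -1.97 ± 0.40 for Hspa1b (adjusted p = 0.00285), -4.66 ± 0.43 for Hspb1 (adjusted p = 0.000123) and 2.17 ± 0.35 for Hsph1 (adjusted p = 0.00136), each in the same direction in 3 of 3 libraries. Without library 2 the difference of Hspa1b was -1.35 and that of Hspb1 -5.56.

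The 4 most abundantly detected genes did not pass this test. The log2 differences were 0.34 ± 0.24 for Hsp90ab1 (adjusted p = 0.241), 0.13 ± 0.24 for Hsp90aa1 (adjusted p = 0.638), 0.09 ± 0.25 for Hspa8 (adjusted p = 0.774) and -0.48 ± 0.22 for Hspa5 (adjusted p = 0.0860), by edgeR's quasi-likelihood test with Benjamini-Hochberg adjustment. Dnajb1 was at -0.30 ± 0.22 (adjusted p = 0.255). Hspa5 passed without library 2 (-0.56, adjusted p = 0.0318). In CPM, before the scaling between sums, 3 of these genes were higher in neurons in every library: Hsp90ab1 (1614, 1336 and 1364 CPM against 634, 901 and 978 CPM), Hsp90aa1 (555, 1212 and 824 CPM against 325, 693 and 723 CPM) and Hspa8 (1639, 1654 and 1320 CPM against 752, 1300 and 1181 CPM). D1-gated and D2-gated neurons were not told apart by any of the 9 genes: 0 of 9 were called, against 0.5% of features, and none had an unadjusted p under 0.05 by edgeR, with 0 of 9 called by DESeq2. For Hsph1 the log2 difference of D1-gated from D2-gated neurons was -0.25, with a 95% interval of -0.85 to 0.34, and for Hspa1a -1.32, with an interval of -3.11 to 0.47. Intervals this wide do not show equal levels.

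Other genes of the chaperone network were counted from 4 lists in the same neuron comparison. Of 43 other cytosolic chaperones and co-chaperones, 13 were higher and 11 lower in neurons, beside 31.6% of all features higher and 34.8% lower. Called members thus made up no larger share than among all features (66.3%), and their median log2 difference was -0.03 beside -0.05 over all features. Hspa12a, an atypical Hsp70 relative, was higher (44.5 ± 10.2 against 4.57 ± 1.44 CPM; 2.88 ± 0.25), as was the Hsph1 relative Hspa4l (170 ± 28.0 against 46.0 ± 15.01 CPM; 1.47 ± 0.17) and Fkbp5, a co-chaperone of Hsp90 (45.02 ± 22.6 against 9.20 ± 1.92 CPM; 1.73 ± 0.21). Cryab, a small heat shock protein abundant in oligodendrocytes, was lower (81.4 ± 54.5 against 1898 ± 373 CPM; -5.15 ± 0.43), as were Hspb2 (-4.25 ± 0.47) and the endothelial Hsp70 relative Hspa12b (-4.04 ± 0.58). Of 6 mitochondrial chaperones 1 was higher, the J-domain gene Dnaja3 (0.79 ± 0.18), and 2 were lower, among them Hspe1, the partner of Hsp60 (-0.92 ± 0.19). The adjusted p-values of these 8 genes lay between 7.05e-05 and 0.00542 by edgeR's quasi-likelihood test.

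Of the 22 endoplasmic reticulum chaperones and unfolded protein response genes, 3 were higher in neurons and 11 lower, beside 31.6% and 34.8% of all features, and the median log2 difference was -0.54 beside -0.05. The higher ones were the chaperone Hyou1 (28.2 ± 14.8 against 6.998 ± 2.34 CPM), the stress sensor Atf6 (60.1 ± 19.6 against 16.6 ± 0.267 CPM) and Hspa13 (44.1 ± 6.48 against 22.5 ± 3.35 CPM). Serpinh1, the collagen chaperone, was lower (5.40 ± 3.05 against 126 ± 24.4 CPM; -4.90 ± 0.29), as were Sdf2l1 (-1.87 ± 0.19) and Dnajc3 (-1.59 ± 0.19), which work with BiP. Of 30 immediate early and stress genes linked to dissociation, 25 were lower and 2 higher in neurons, beside 34.8% and 31.6% of all features, and the median log2 difference was -1.89 beside -0.05. Hspa1a and this list were thus both lower in neurons. The 2 higher genes were the activity-regulated transcription factors Egr1 (515 ± 116 against 42.2 ± 22.04 CPM; 3.27 ± 0.25) and Fosb (26.5 ± 9.52 against 9.59 ± 2.81 CPM; 1.06 ± 0.31). The metallothionein Mt2 (118 ± 17.8 against 2665 ± 1596 CPM; -4.74 ± 0.58), Klf2 (-4.73 ± 0.29) and Klf4 (-4.39 ± 0.30), both Krüppel-like transcription factors of vessels and immune cells, were among the lower genes. The adjusted p-values of the genes named from these 2 lists lay between 3.86e-05 and 0.0379 by edgeR's quasi-likelihood test. What part of the list's difference reflects dissociation was not tested, and the neurons had also been stimulated.

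Library and cell class were then set side by side as sources of variation. The sum of squares of log2 CPM over the 33 sums (11 classes in 3 libraries) was split into a class part, a library part and a remainder. Here log2 CPM was taken after TMM scaling between the sums, unlike the plain CPM quoted above. This is a description without a test, because each library occurs once. The class part was 85.0% for Hspb1, 72.8% for Hsp90ab1, 63.9% for Hspa1a and 60.7% for Hspa1b, with library parts of 8.66%, 11.4%, 13.0% and 7.23%. Cell class was thus the larger part for these 4. It was also the larger for Hsp90aa1 (54.9% against 28.3%), Hsph1 (52.7% against 21.3%), Hspa8 (48.6% against 30.1%) and Dnajb1 (42.1% against 19.4%). Counting error alone was estimated at 27.0% of the variation for Hspa1b and 18.1% for Dnajb1. For the other genes it was 4.22% to 7.89%, so counting error weighs most on Hspa1b and Dnajb1. This estimate leaves out the concentration of UMIs in few cells, and the split of Hspa1a also moved with the setting. Without the 20 cells of highest Hspa1a, over 10 classes, its library part was 5.62% and its class part 79.9%. In cells thinned to 1000 UMIs, over 9 classes, they were 24.2% and 56.2%. For Hspa5 the library part was the larger, 47.3% against 37.8%, and 99.64% of features had a smaller library part. This order turned when library 1 was left out (27.0% library against 59.9% class) or library 2 (19.1% against 64.5%), and held without library 3 (59.3% against 31.2%). In cells with at least 1000 UMIs, Dnajb1 also had more library (36.9%) than class variation (28.3%). Beside the 99.64% for Hspa5, the share of features with a smaller library part was 97.71% for Hspa8 and 97.23% for Hsp90aa1. It was 93.87% for Hsph1, 92.32% for Dnajb1 and 82.85% for Hspa1a. Lower still were Hsp90ab1 (78.79%), Hspb1 (69.63%) and Hspa1b (63.54%). The median over the 9 genes was 54.9% for class and 19.4% for library, beside 69.8% and 4.75% over 8993 features. Without library 1 these medians were 80.4% and 3.13% for the 9 genes, beside 78.7% and 2.27% over all features. Without library 2 they were 64.5% and 11.5%, and without library 3 53.7% and 29.5%. The library that mattered most differed between genes: the library part of Hspa5, Dnajb1 and Hsph1 was smaller without library 2 (19.1%, 2.08% and 4.96%) than without library 1 (27.0%, 16.7% and 17.3%), while that of Hspa1a was 15.4% without library 2 and 0.391% without library 1.

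**Figure D3:**
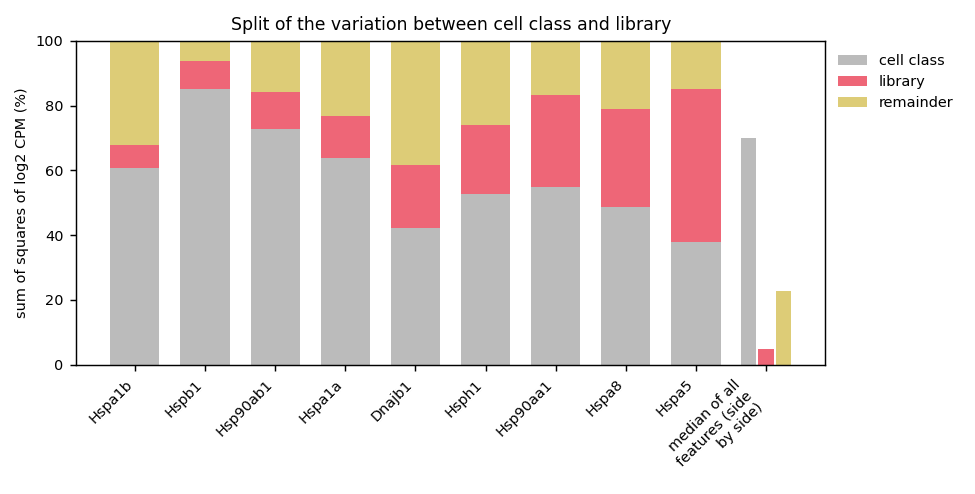
Split of the sum of squares of log2 CPM after TMM scaling (vertical axis, %) into cell class, library and remainder for each heat shock gene. Bars are stacked to 100% and ordered by the library part. The last group gives the medians over 8993 features side by side. Hspa5 has the largest library part (47.3%), and the library part of all 9 genes lies above the all-feature median of 4.75%. The share of features with a smaller library part runs from 63.54% for Hspa1b to 99.64% for Hspa5.

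On log2 CPM after TMM scaling, library 1 was on average the lowest for each of the 9 genes. In plain CPM the order of libraries can differ. Hsp90ab1 in D1-gated neurons was highest in library 1 in plain CPM, at 1668, 1382 and 1436. After scaling it was lowest there, at 10.417, 10.462 and 10.436 on the log2 scale. Taken as the deviation from the mean of the 3 libraries in the same class, averaged over 11 classes, Hspa5 was at -0.74 ± 0.39 (SD over classes), 0.76 ± 0.33 and -0.02 ± 0.37 in libraries 1, 2 and 3 on the log2 scale. It was below the class mean in 11 of 11 classes in library 1 and above it in 11 of 11 in library 2. Hspa8 (0.36 ± 0.22), Dnajb1 (0.69 ± 0.56) and Hsph1 (1.18 ± 0.80) were also above in 11 of 11 classes in library 2. Hspa1a had deviations of -1.35 ± 1.64, 0.49 ± 0.82 and 0.85 ± 1.44, and was highest in library 2 in 5 classes, in library 3 in 5 and in library 1 in 1. Without the 20 cells of highest Hspa1a, 14 of them from library 3, its plain CPM was highest in library 2 in 8 of 11 classes and in library 3 in 2. Over all features the median deviations were -0.26, 0.26 and -0.004, so library 1 was low and library 2 high for the typical feature too, by less than for Hspa5. Hsp90ab1 in library 1, at -0.28 ± 0.27, was close to the typical feature. The share of all features that were lowest in library 1 was not counted. The classes of a library are not independent measurements of it. Library 1 was also the shallowest and had the lowest mitochondrial share. These properties of a library cannot be told apart here from handling, animal or sequencing.

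**Figure D4:**
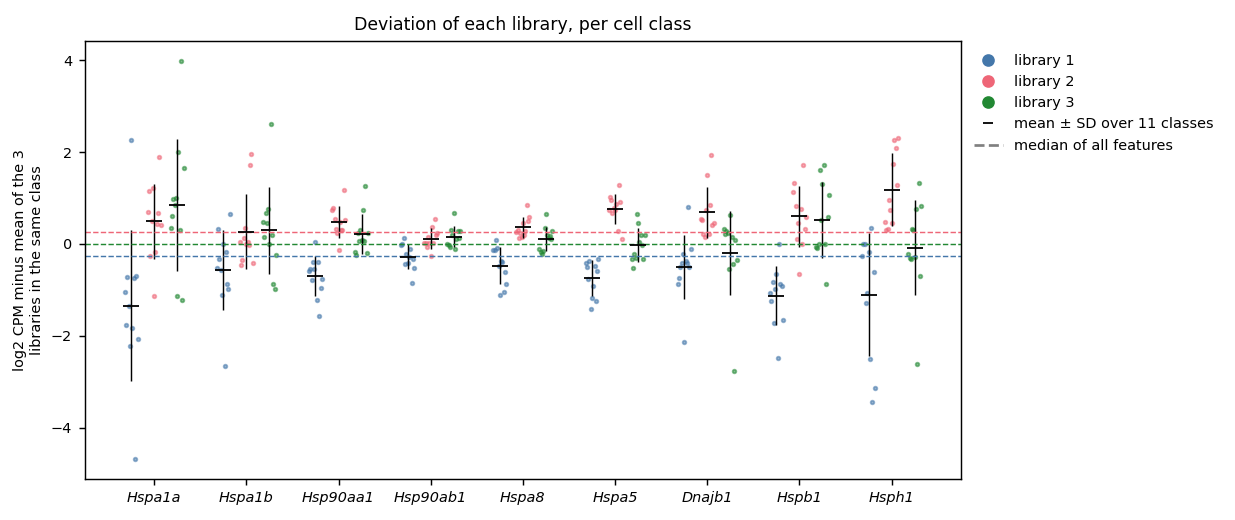
Deviation of each library from the mean of the 3 libraries in the same class (vertical axis, log2 CPM after TMM scaling). Each point is 1 class. Black marks are the mean ± SD over 11 classes, and dashed lines are the medians over all features. Library 1 is lowest on average for all 9 genes, and the points of Hspa5 in libraries 1 and 2 do not overlap.

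The dissociation-linked list did not follow the order of libraries seen in the summed heat shock genes. Its summed level was highest in library 3 in 6 of 11 classes, in library 2 in 3 and in library 1 in 2. The summed level of the 9 heat shock genes was highest in library 2 in 7 of 11 classes and in library 3 in 4, and never in library 1. In this sum the abundant Hspa8 and Hsp90ab1 weigh most. Gene by gene, after TMM scaling, Hspa1b and Hspb1 were highest in library 3 in 6 classes each, and Hspa1a and Hsp90ab1 in 5 each. For the other genes this was 0 to 4 classes. The share of all features highest in a given library was not counted. The endoplasmic reticulum list was highest in library 2 in 9 of 11 classes, and the other cytosolic chaperones in 10 of 11. Astrocytes show the contrast: they had the highest summed level of the dissociation-linked list of any class, at 59491, 16176 and 39363 CPM, and the lowest of the heat shock genes, at 1130, 1929 and 1628 CPM. Within astrocytes the 2 sums ran opposite, the first highest in library 1 and the second lowest there. The list holds the metallothioneins Mt1 and Mt2, which are abundant in astrocytes.

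Across the 33 sums of log2 CPM after TMM scaling, the features most like each gene were ranked by Pearson's r. The sums share libraries and classes, so r is a description. Hspa5 was most like 2 other endoplasmic reticulum stress genes, the disulfide isomerase Pdia6 (r = 0.826) and the secreted factor Manf (r = 0.823), with the adaptor gene Sdcbp next (r = 0.741). Hspb1 was most like Ppic (r = 0.908), Tinagl1 (0.906) and Hrct1 (0.905). Hsph1 was most like Tsnax (0.893), the neuropeptide precursor gene Vgf (0.880) and Snap25 (0.880), a synaptic gene that was used to gate neurons. Hspa1a was most like Apobec1 (0.818), Rrad (0.8004) and Edem1 (0.797), and Hspa1b like Fgl2 (0.782), Ifi204 (0.768) and Adap2 (0.719). For Dnajb1 they were Grb2 (0.853), Sh3kbp1 (0.838) and Hif1a (0.834), and for Hspa8 Trim27 (0.811), Daxx (0.810) and Caap1 (0.802). For Hsp90aa1 they were Ggct (0.725), Sv2a (0.720) and Sh3gl3 (0.712), and for Hsp90ab1 Gm16286 (0.797), Grasp (0.786) and Ppp1ca (0.773). Among the 9 genes, Hspa1a and Hspa1b had the highest r with each other, 0.730, and Hspa1a and Hsph1 the lowest, -0.15.

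Of the other 8 heat shock genes, 6 were higher in each library in the cells that held Hspa1a, and 4 of those, Hsp90aa1, Hsp90ab1, Hspa8 and Dnajb1, also when cells were thinned to equal depth. Gated cells with at least 1 Hspa1a UMI (29, 318 and 99 in libraries 1 to 3) were set against cells without one, weighted to the same mix of classes and of UMIs per class. Hsp90aa1 measured 685, 1058 and 1078 CPM in the positive cells and 355, 950 and 703 CPM in the negative ones. Dnajb1 measured 105, 74.5 and 64.4 CPM against 29.3, 70.9 and 45.2 CPM. Both were higher in the positive cells of each library, least so in library 2, and the library 1 value of Dnajb1 rests on 4 UMIs. The mean log2 ratio of CPM + 10 was 0.56 ± 0.39 (SD, n = 3) for Hsp90aa1, 0.68 ± 0.78 for Dnajb1, 0.30 ± 0.26 for Hspa8, 0.13 ± 0.09 for Hsp90ab1, 0.42 ± 0.34 for Hsph1 and 1.49 ± 0.66 for Hspa1b, each higher in 3 of 3 libraries. Hspa5 (0.18 ± 0.41) and Hspb1 (0.73 ± 0.99) were higher in 2 of 3. Of 9860 features, 9.77% were higher in 3 of 3 libraries, and the median log2 ratio was -0.11. This background took features from 10 CPM, while 1 UMI in the positive cells of library 1 is 26.4 CPM. A feature near that minimum can read 0 there. The background is thus not matched in level to the abundant heat shock genes. The sum of the dissociation-linked list was 10360 ± 2043 CPM in positive and 7446 ± 2628 CPM in negative cells, higher in 3 of 3 libraries, while the endoplasmic reticulum list was higher in 1 of 3. Depth differed: the median positive cell had 1153, 2338.5 and 3805 UMIs, and the median of all gated negative cells was 1030, 2181 and 2760. These medians are not weighted by class, so they also reflect the different mix of classes. In cells thinned to 1000 UMIs the ratios were 0.96 ± 0.68 for Hsp90aa1, 1.02 ± 0.70 for Dnajb1, 0.51 ± 0.48 for Hspa8 and 0.41 ± 0.16 for Hsp90ab1, each higher in 3 of 3 libraries, and so were Hspa5 (0.43 ± 0.41) and Hspb1 (1.41 ± 0.68). Thinned, Hspa1b (0.85 ± 1.67) and Hsph1 (-0.95 ± 2.14) were higher in 2 of 3, both with 0 UMIs in the 13 positive cells of library 1. In those 13 cells Dnajb1 and Hspb1 had 1 UMI each, so their direction in library 1 turns on single molecules. The share of all features higher in 3 of 3 libraries is not given for thinned cells, so the thinned counts have no background beside them. No test was run, because no class had 10 positive cells in each library, and a class-weighted comparison can still mix cell types within a class.

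**Figure D5:**
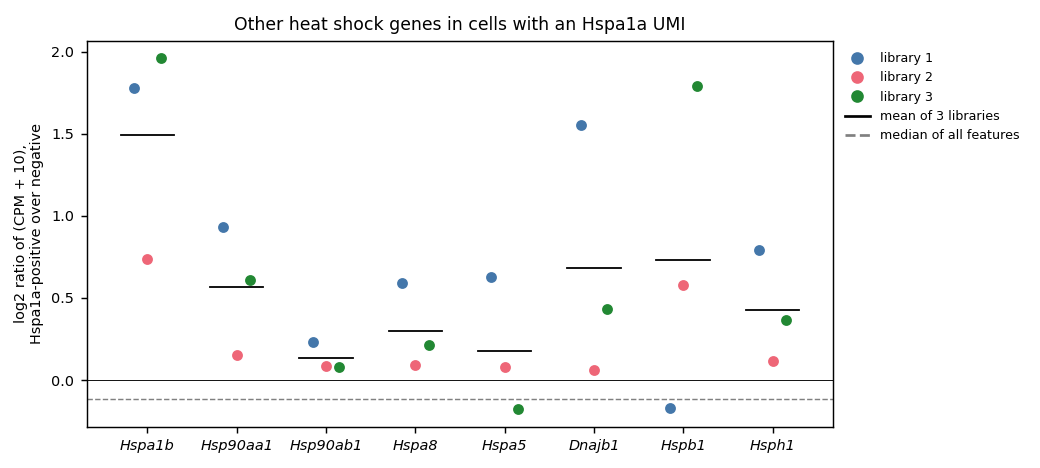
Log2 ratio of CPM + 10 in cells with an Hspa1a UMI over class-weighted cells without one (vertical axis) for the other 8 heat shock genes. Points are the 3 libraries, black bars their means, and the dashed line the median of 9860 features (-0.11), not matched in level to these genes. Hspa1b, Hsp90aa1, Hsp90ab1, Hspa8, Dnajb1 and Hsph1 lie above 0 in each library, with library 2 or 3 closest to 0.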

How the data were processed

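Single-cell libraries were made with a droplet-based 3′ kit (10x Genomics, v2 chemistry) from cells of the dissociated accumbens, per the labels. The deposited values are raw UMI counts per gene and cell in 1 matrix of 3 libraries, with Cell Ranger 3.0 and genome build mm10 named in the submitters' processing notes and version 3.0.0 per the file headers. How reads matching several genes were treated is not given in the sources used here. No column was normalized or scaled.

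Cells were filtered to no fewer than 300 detected genes and no more than 20% mitochondrial UMIs, and the highest Scrublet doublet scores were removed at 0.8% per 1000 cells of a library (368 cells). The automatic Scrublet threshold marked 76. A cell took the class with most of its marker genes detected, needing at least 3 and at least 2 more than any other class, and within neurons at least 2 D1 or D2 markers and 2 more than the other set. Of the markers, 87 were used and 3 were not analysed here. Counts were summed per library and class (at least 10 cells in each library) and tested with edgeR 4.0.16 (quasi-likelihood, TMM scaling, filterByExpr, library as block) in R 4.3.3, with Benjamini-Hochberg adjustment at 0.05 over all features. DESeq2 1.42.0 was an alternative, and the test was checked on simulated data. Both sums of a comparison come from 1 library, which is why library is a block. Sums of squares, deviations of libraries and r used log2 CPM after TMM scaling, with a prior count of 2. The precision of each value is limited by the UMIs in the sum, and intervals (95%) and limits from 0 counts (3 UMIs of the total) cover counting error only. Gene positions follow GENCODE M21, on the same build, and promoters RefSeq. Scripts ran in Python 3.11.15 with scanpy 1.11.5.

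The 9 genes and the pathway lists were chosen with earlier results of these data known. All 9 are reported in each comparison. From each list, up to 3 higher and 3 lower genes were named by size of change among those past the threshold in the same direction in 3 libraries, and for each heat shock gene the 3 features with highest r.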

Additional observations from a re-analysis of the deposited data

How the results depend on the processing

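Each comparison was repeated with other scaling, tests, filters, gates and depths, and with each library left out. The count of heat shock genes called between neurons and non-neuronal cells was 4, and 3 to 5 over all alternatives, with 3 to 5 when a library was left out. Calls between classes numbered 32, with 23 to 25 when a library was left out, 38 with DESeq2 and with no filter, and 20 without the library block. Leaving out a library can bring a class to 0 UMIs of a gene, and some calls could then not be judged. A gate of at least 4 markers left 10 classes, and the 2 settings at 1000 UMIs left 9, which changes the mean of the other classes. Between D1-gated and D2-gated neurons the count was 0 in every setting. The median class part was 53.7% to 80.4% and the median library part 3.13% to 29.5% when a library was left out. Both extremes of high class and low library part came without library 1, and the cause was not tested. Signs turned only among differences that did not pass the test: Hsp90aa1 in neurons was -0.032 at no more than 10% mitochondrial UMIs, and Hspa8 was -0.033 at the same limit, -0.024 in thinned cells, and -0.079 to 0.27 when a library was left out, negative without library 1. With that mitochondrial limit Hspa5 passed the test at -0.64. Of 635 single values under an alternative, 561 changed neither direction nor call, 68 lost their call and 2 gained one. Without the library block the calls in neurons against non-neuronal cells numbered 4. The planned test of Hspa1a-positive against negative cells within a class was not run, with none of its alternatives, because no class had 10 cells in each arm of each library, and the class-weighted description was added after seeing the data. Few cells limit T cells and oligodendrocyte precursors, and 121 UMIs limit Hspa1b.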
